A study of Mus musculus with 24 samples.

Results

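MLL-ENL (ME) is a human fusion protein, and its effect was examined here in newborn mouse liver by setting 4 RNA-seq libraries of ME-expressing LSK cells against 4 libraries of wild-type (WT) LSK cells. These 8 libraries were chosen by their titles from the 24 in the series, and the differences cover all 23059 genes with enough counts to be tested, of 55487 in the deposited count table. Both groups were taken from liver at postnatal day 0 (P0). In the ME group a Tet-off transgene for human MLL::ENL had been induced in the embryo at E10.5, in mid-gestation. LSK cells are lineage-negative cells with Sca-1 and KIT on their surface, the fraction that holds blood stem cells and multipotent progenitors. The titles call the sorted cells LSK, while the series' design text speaks of lineage-negative, KIT-positive progenitors. The design text gives 4 biological replicates per group. The strain, the promoter that drives the Tet transactivator, the alleles of the controls and whether a library came from 1 animal or a pool are not given in the sources used here. The other groups used below are from bone marrow at postnatal day 28 (P28), 4 WT libraries and 4 ME libraries induced at E10.5.

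MLL (mouse gene Kmt2a) is a histone methyltransferase that keeps developmental genes such as the HOXA cluster active, and ENL (Mllt1) is a subunit of complexes that release paused RNA polymerase. The fusion joins the part of MLL that finds chromatin to ENL, and in leukaemia it is known to keep HOXA genes, Meis1, Mecom and Mef2c transcribed. In the fetus and newborn the liver is the main site of blood formation, and stem and progenitor cells later move to the marrow.

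In newborn LSK cells with ME, genes of the HOXA cluster (Hoxa5, Hoxa7, Hoxa9 and Hoxa10), Mecom, Mef2c and Kmt2a were higher than in WT, as were the matrix gene Postn, the chromatin-reader gene Baz2b and the protocadherin gene Pcdh7. The calls of Hoxa7 and Mef2c were lost when some single libraries were left out. Reads of the human transgene cannot be told apart from mouse Kmt2a reads. The cytokine-signalling inhibitor Socs2, the transcription factor Gata3, the adhesion gene Esam and the interferon-inducible membrane gene Ifitm1 were lower. In all, 148 of 23059 genes were called (0.642%), 84 of them higher (0.364%) and 64 lower in ME (0.278%). A gene is called where the edgeR quasi-likelihood test, fitted to all 24 libraries, gave a Benjamini-Hochberg adjusted p under 0.05. The smallest log2 fold change among the called genes was 0.64 upward and -0.55 downward, and the median fold change over all genes tested was -0.01 on the log2 scale. With plain library totals in place of the TMM scaling factors, 82 genes were called higher and 40 lower. By the correlation of their deviations the replicate numbers were taken to pair the libraries. With the number as a block 750 genes were called (3.25%), 401 higher (1.74%) and 349 lower (1.51%), including all 148. The block was chosen from the same values that it is then used to test, and the pairing is not clear-cut. Its calls, here and below, are therefore no independent support. With the 8 P0 libraries fitted alone, 5 of 19323 genes were called (0.0259%), each of them higher in ME, and with the block as well 26 were called, 20 higher (0.104%) and 6 lower (0.0311%). The groups did not overlap for 131 of the 148 genes, where 3.74% of all genes tested had groups that did not overlap.

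The promoters of 4 of the called genes are shown to give the sequence at a RefSeq start of transcription of 2 genes of the HOXA cluster, of Postn, which was called under every alternative tried, and of Gata3, which fell. Each is the 250 bases before 1 RefSeq start site, 5′ to 3′, with every CG dinucleotide in capitals. The Hoxa9 and Gata3 windows lie inside the annotated spans of these genes, not at their outer 5′ ends. Postn has 2 RefSeq promoters, of which 1 is shown.
Hoxa5, GRCm38.p6 chr6:52204588-52204837, minus strand: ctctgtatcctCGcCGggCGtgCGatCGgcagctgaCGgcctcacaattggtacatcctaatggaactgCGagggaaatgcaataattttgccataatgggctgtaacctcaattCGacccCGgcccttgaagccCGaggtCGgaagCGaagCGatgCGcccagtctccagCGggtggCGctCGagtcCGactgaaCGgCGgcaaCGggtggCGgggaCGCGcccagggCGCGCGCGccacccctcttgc
Hoxa9, GRCm38.p6 chr6:52227371-52227620, minus strand: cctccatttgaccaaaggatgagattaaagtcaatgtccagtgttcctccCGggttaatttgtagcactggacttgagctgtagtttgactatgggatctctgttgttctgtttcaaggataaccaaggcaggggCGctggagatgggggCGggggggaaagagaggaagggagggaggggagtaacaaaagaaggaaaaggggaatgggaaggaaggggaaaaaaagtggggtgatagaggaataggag
Postn, GRCm38.p6 chr3:54360857-54361106, plus strand: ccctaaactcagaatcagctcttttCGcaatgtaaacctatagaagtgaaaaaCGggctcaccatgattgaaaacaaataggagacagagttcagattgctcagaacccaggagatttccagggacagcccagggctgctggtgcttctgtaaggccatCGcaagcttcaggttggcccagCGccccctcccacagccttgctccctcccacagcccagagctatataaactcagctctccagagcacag
Gata3, GRCm38.p6 chr2:9878601-9878850, minus strand: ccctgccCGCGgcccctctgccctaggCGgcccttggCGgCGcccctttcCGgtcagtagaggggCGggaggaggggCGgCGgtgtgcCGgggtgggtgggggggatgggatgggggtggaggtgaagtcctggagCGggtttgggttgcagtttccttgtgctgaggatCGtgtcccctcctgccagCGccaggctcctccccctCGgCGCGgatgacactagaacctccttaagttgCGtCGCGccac
The letters CG read the same on both strands. The Hoxa5 window holds 28 of them, a number reached by 7.61% of the 32851 RefSeq promoter windows of this length, and the Gata3 window holds 19, reached by 19.7%. The Hoxa9 window holds 3 and the Postn window 4, numbers reached by 71.0% and 62.2%. A symbol match to a promoter was found for 69 of the 84 genes called higher, with a median of 17 CG, and for 45 of the 64 called lower, with a median of 12. Over the 13354 tested genes with a match the median was 15 (quartiles 7 and 23), so both medians lie within the middle range of all tested promoters.

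The 8 libraries held 42968051 to 89774511 counts each. They were far from alike within a group, and the biological coefficient of variation that edgeR estimated was 102% over the WT libraries and 82.6% over the ME libraries. Over all 24 libraries it was 71.5%, below the 92.9% of the P0 libraries fitted alone. The test that pools all 24 therefore starts from a lower common spread. Single genes differed in this. The standard error (SE) was 0.31 pooled and 0.46 with the P0 libraries alone for Gata3, but 0.70 and 0.25 for Lin28b. Library 1 of WT and library 1 of ME resembled each other (r = 0.926 across genes) more than either resembled a library of its own group. Library 4 of WT stood apart in another way, its long transcripts being low: the fifth of genes with the longest exons lay below the fifth with the shortest by -1.19 on the log2 scale there, against -0.30 to 0.64 in the other 7. WT library 1 carried both Xist (19.2 CPM, counts scaled to a common library total) and Y-linked RNA (165 CPM over 4 genes), whereas each of the others had one or the other. This check was chosen after the values were seen. The count of calls was 575 without WT library 1, 144 without WT library 4, 144 without ME library 1 and 238 (0.998%) without library 1 of both groups, where 97 of the 148 were called again. Of the 148, 42 were called whichever single library was left out (25 higher, 17 lower), and each of the 148 kept its direction in every fit that tested it.

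The genes that define the sorted cells were present in every library. Kit, the receptor used in the sort, was measured at 1451, 616, 885 and 169 CPM in WT libraries 1 to 4 and at 1360, 453, 1152 and 499 CPM in the ME libraries. Its level was lowest in WT library 4, and the groups overlapped (log2 fold change 0.15, SE 0.39, edgeR adjusted p = 0.909). The direction of the Kit value depended on single libraries and was -0.22 without WT library 4. Ly6a, which encodes Sca-1, was at 122, 86.4, 119 and 228 CPM in WT and at 105, 120, 79.1 and 71.2 CPM in ME (-0.57, SE 0.21, adjusted p = 0.196). Kmt2c, which encodes MLL3 of the series' title, was at 36, 24, 40.4 and 23.9 CPM in WT and at 44, 21.6, 50.1 and 34.8 CPM in ME (0.28, SE 0.24, adjusted p = 0.645). Neither of these groups separated.

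Among the targets of MLL fusions, the HOXA cluster on chromosome 6 was called at 5 of its 10 tested genes, all higher in ME. Of all genes tested, 0.364% were called higher. Hoxa9, a homeodomain factor of stem and progenitor cells (GRCm38, 52223100 to 52231089), was at 90.3, 72.2, 60.2 and 85 CPM in WT and at 233, 125, 129 and 144 CPM in ME. Every ME library exceeded every WT library, and ME library 1 was the highest. The means were 76.9 ± 13.5 and 158 ± 50.7 CPM (SD, n = 4), and the log2 fold change was 1.03 with an SE of 0.17 (edgeR adjusted p = 0.0026). Hoxa10, its neighbour in the cluster (52231197 to 52240854), was at 58.1, 44.2, 29.1 and 69.9 CPM in WT and at 218, 122, 98.7 and 147 CPM in ME. The lowest ME library lay above the highest WT library here too, and the log2 fold change was 1.54 (SE 0.22, adjusted p = 0.000474). Hoxa5 (52201754 to 52204587), whose CG-rich promoter is printed above, was at 11.5, 7.11, 5.47 and 2.64 CPM in WT and at 39.3, 23.6, 24.2 and 34.8 CPM in ME. This was the largest fold change of the cluster among genes above 10 CPM in ME, 2.19 on the log2 scale (SE 0.32, adjusted p = 0.000855), from a mean of 6.68 ± 3.71 to 30.5 ± 7.80 CPM.

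Hoxa7 (52214491 to 52221854) was at 42.2, 33.0, 27.8 and 50.5 CPM in WT and at 78.4, 65.3, 52.7 and 85.5 CPM in ME. Its groups did not overlap, but its adjusted p of 0.0497 was at the threshold (log2 fold change 0.88, SE 0.21), and the call was lost without WT library 2 or 3 or ME library 1, 2 or 4 (adjusted p 0.0793 to 0.132). Hoxa2 was near the floor of detection in WT, at 0.463, 0.0520, 0.0888 and 0 CPM, and was at 5.26, 1.81, 0.888 and 2.69 CPM in ME (adjusted p = 0.0302, and 0.931 with the P0 libraries alone). It is outside the gene lists and was chosen after its values were seen, and its call was lost without WT library 2 or 3 or ME library 1 (0.0659 to 0.0813). Hoxa3, Hoxa4, Hoxa6 and Hoxa13 were not called, and in each of them the groups overlapped. The annotated span of Hoxa3 contains Hoxa4, Hoxa5 and Hoxa6 on the same strand, so their counts may depend on how shared reads were assigned.

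Mecom, which encodes the stem-cell transcription factor EVI1 (chromosome 3, 29951296 to 30548008), was at 114, 84.4, 86.6 and 35.9 CPM in WT and at 360, 190, 244 and 192 CPM in ME. All ME libraries were above all WT libraries, with means of 80.3 ± 32.6 and 247 ± 79.7 CPM, and on the log2 scale the change was 1.62 (SE 0.24, edgeR adjusted p = 0.000993). Mef2c, a transcription factor of lymphoid and myeloid progenitors, was at 341, 284, 356 and 276 CPM in WT and at 645, 494, 451 and 562 CPM in ME. Its groups were separate with a smaller step (0.77, SE 0.16, adjusted p = 0.0223), and its call was lost without WT library 2 or 4 or ME library 1 or 4 (0.0605 to 0.0729).

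Over the list of 29 tested MLL-fusion targets, 6 were called higher (Hoxa5, Hoxa7, Hoxa9, Hoxa10, Mecom and Mef2c) and none lower, where 0.364% of all genes tested were called higher. The list's median log2 fold change was 0.54 against -0.01 for all genes, and 24 of the 29 values were above 0, where 11301 of all 23059 were. The groups did not overlap for 10 members, all higher in ME, where 2.18% of all genes tested had such groups. With the replicate block 12 members were called higher and none lower, where 1.74% of all genes tested were called higher. With the P0 libraries alone none was called, and the edgeR adjusted p was 0.297 for Hoxa5, 0.325 for Hoxa10, 0.388 for Mecom, 0.524 for Hoxa9, 0.591 for Mef2c and 0.726 for Hoxa7. Meis1, the HOX cofactor, was one of those gained. It was at 277, 165, 143 and 156 CPM in WT and at 394, 239, 244 and 203 CPM in ME, so that WT library 1 lay within the ME range. Its adjusted p was 0.175 without the block and 0.00467 with it, and 0.0368 without library 1 of both groups. Zeb2, a repressor of the epithelial programme that also acts in blood progenitors, was at 92.9, 62.1, 31.4 and 40.5 CPM in WT and at 150, 105, 103 and 100 CPM in ME. Its groups did not overlap, with an adjusted p of 0.0575 and, with the block, 0.00209. Flt3, a receptor of multipotent and lymphoid progenitors, was highest in library 1 of both groups, at 929, 493, 564 and 514 CPM in WT and at 1279, 443, 706 and 625 CPM in ME, with overlapping groups (0.29, SE 0.32, adjusted p = 0.736). Without library 1 of both groups 6 members were again called higher, Hoxa5, Hoxa9, Hoxa10, Mecom, Meis1 and Zeb2, while Hoxa7 and Mef2c had adjusted p values of 0.0824 and 0.0506.

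**Figure D1:**
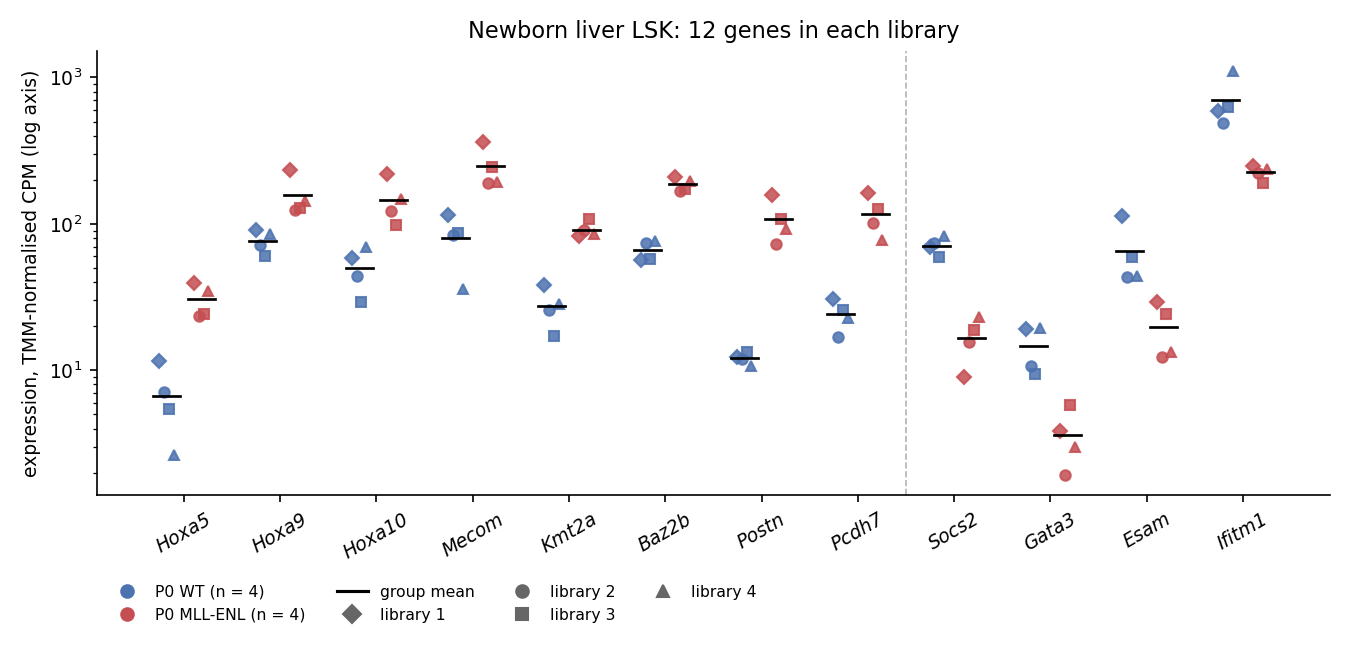
Expression of 12 named genes in each of the 8 newborn libraries, in TMM-normalised CPM on a log axis; blue is WT, red is ME, marker shapes give the library number and black bars are group means (n = 4 each). For each gene the 2 groups do not overlap, and library 1 of ME is the highest for Hoxa9, Hoxa10, Mecom, Postn and Pcdh7.

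Kmt2a, the mouse gene for MLL (chromosome 9, 44803355 to 44881296), was at 38.1, 25.8, 17.1 and 28.3 CPM in WT and at 82.8, 90.2, 107 and 85.7 CPM in ME. The groups were far apart, and the log2 fold change was 1.74 (SE 0.18, edgeR adjusted p = 4.16e-06, and 0.0796 with the P0 libraries alone). The table has no entry for the human transgene, and reads of its MLL part, which is homologous to Kmt2a, cannot be told apart from mouse Kmt2a reads in gene counts. Mllt1, the mouse gene for ENL, was at 71.2, 58.0, 93.2 and 22.7 CPM in WT and at 71.9, 52.7, 70.0 and 46.1 CPM in ME, so its groups overlapped (-0.03, SE 0.26, adjusted p = 0.979). Of the 26 fusion partners and elongation cofactors, Kmt2a alone was called, where 0.642% of all genes tested were. With the block 3 were called higher, Kmt2a, Aff1 and Ell2, where 1.74% of all genes tested were. Kmt2a was also the only one called of the 15 tested genes for COMPASS methyltransferases and their subunits, without and with the block. Of all genes tested, 0.642% were called without it and 3.25% with it.

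Outside the MLL-target list, Postn, which encodes the matrix protein periostin (chromosome 3, 54361109 to 54391037), was at 12.3, 12.0, 13.3 and 10.7 CPM in WT and at 156, 73.4, 108 and 92.1 CPM in ME. The WT values were tightly grouped, and every ME library lay far above them. The log2 fold change was 3.16 (SE 0.33, edgeR adjusted p = 4.85e-06). It was the 1 gene called in each of the 20 alternatives, including the fit of the P0 libraries alone (adjusted p = 0.00195). Baz2b, a bromodomain gene of chromatin remodelling complexes (chromosome 2, 59899363 to 60209839), had the smallest adjusted p of all and was chosen for that. It was at 56.5, 73.5, 57.7 and 75.8 CPM in WT and at 208, 168, 172 and 196 CPM in ME. The groups were more than the WT spread apart, with means of 65.9 ± 10.2 and 186 ± 19.4 CPM (log2 fold change 1.5, SE 0.13, adjusted p = 5.09e-07, and 0.0312 with the P0 libraries alone).

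Pcdh7, a cell-adhesion protocadherin (chromosome 5, 57717967 to 58133230), was at 30.8, 17.0, 25.8 and 22.9 CPM in WT and at 163, 102, 127 and 77.2 CPM in ME. Its log2 fold change was 2.28 (SE 0.36, edgeR adjusted p = 0.00136, and 0.027 with the P0 libraries alone), again with no overlap. Sva, a gene known from the seminal vesicle (chromosome 6, 42038394 to 42042851), had no count in any WT library and 259, 279, 289 and 352 counts in the ME libraries, or 4.01, 4.71, 4.94 and 8.69 CPM. Against the floor of 3 counts per WT library, the ME mean was at least 122-fold higher (adjusted p = 1.12e-05). Skida1 was called in the fit of the P0 libraries alone (2.87, SE 0.37, adjusted p = 0.027) and not in the fit of all 24 (adjusted p = 0.149). It was at 7.18, 4.68, 7.43 and 7.23 CPM in WT and at 85.6, 34.1, 40.5 and 33.6 CPM in ME. Postn, Baz2b, Pcdh7, Sva and Skida1 were the 5 genes of that fit, and Baz2b, Sva and Skida1 are named after their values were seen.

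Further rises that held whichever single library was left out were those of Rhbdf1, an inactive rhomboid protein that acts in growth factor shedding, the glycogen phosphorylase gene Pygm, the gluconeogenic gene Fbp1, the corepressor gene Tle6 and Fam169a. Rhbdf1 was at 5.03, 3.21, 1.68 and 2.92 CPM in WT and at 53.3, 18.5, 27.7 and 5.85 CPM in ME, with ME library 4 just above the WT range (3.04, SE 0.47, edgeR adjusted p = 0.00136). Pygm was at 20.6, 12.0, 14.9 and 4.88 CPM in WT and at 43.1, 35.9, 40.2 and 43.2 CPM in ME (1.63, SE 0.27, adjusted p = 0.00258). The ME libraries were tightly grouped here while WT library 4 was low. Fbp1, Tle6 and Fam169a had log2 fold changes of 1.62, 1.69 and 2.44. Col5a3, a collagen chain, went from 0.807 ± 0.750 to 12.9 ± 3.12 CPM, a rise of 4.00 on the log2 scale (SE 0.88, adjusted p = 0.0289). Its call was lost without WT library 2 or 3 or ME library 2, 3 or 4 (0.0542 to 0.0719). The metalloprotease gene Mmp11 (1.83), Gfod1 (1.81) and the actin-binding gene Dbn1 (1.66) were also called higher. Each of these 3 lost its call without WT library 4 (0.0671, 0.0541 and 0.0775) and without at least 2 other single libraries.

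Kitl, the gene for the ligand of KIT, had 0, 0, 0 and 2 counts in the WT libraries and 42, 207, 93 and 22 counts in the ME libraries, or 0.650, 3.50, 1.59 and 0.543 CPM. Its adjusted p was 0.0254, and 0.0556 to 0.0633 without WT library 2 or 3 or ME library 2. This gene was named after its values were seen, and its level in ME was low beside that of Kit.

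Among the genes that fell, Socs2, a feedback inhibitor of cytokine receptors that signal through JAK and STAT (chromosome 10, 95385362 to 95417180), was at 69.3, 73.6, 59.1 and 82.5 CPM in WT and at 9.02, 15.6, 18.8 and 23.1 CPM in ME. Every ME library was below every WT library, and the lowest was ME library 1. The log2 fold change was -2.10 (SE 0.32, edgeR adjusted p = 0.00117, and 0.0597 with the P0 libraries alone). Gata3, a transcription factor of T cells, innate lymphoid cells and some stem cells (chromosome 2, 9857078 to 9890034), was at 19.1, 10.7, 9.38 and 19.4 CPM in WT and at 3.85, 1.93, 5.77 and 3.01 CPM in ME. Its groups did not overlap (-2.01, SE 0.31, adjusted p = 0.00132, and 0.512 with the P0 libraries alone). Esam, an adhesion molecule carried by blood stem cells and endothelium (chromosome 9, 37528078 to 37538319), was at 113, 43.6, 59.4 and 43.7 CPM in WT and at 29.1, 12.3, 24.3 and 13.4 CPM in ME. Library 1 was the highest of each group, and the groups did not overlap (-1.71, SE 0.28, adjusted p = 0.00226, and 0.512 with the P0 libraries alone).

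Ifitm1, a small interferon-inducible membrane protein that basophils and stem cells also carry (chromosome 7, 140967221 to 140969825), was at 589, 491, 628 and 1107 CPM in WT and at 250, 223, 190 and 235 CPM in ME. The ME libraries were close together and below all of WT (-1.65, SE 0.22, edgeR adjusted p = 0.000238, and 0.117 with the P0 libraries alone). Slco3a1, an organic anion transporter, was at 139, 91.6, 85.5 and 132 CPM in WT and at 41.7, 33.1, 52.4 and 27.8 CPM in ME (-1.53, SE 0.19, adjusted p = 7.56e-05), without overlap. With the P0 libraries alone its edgeR adjusted p was 0.17. These 5 falls were called whichever single library was left out, as were Trim47 (-1.30), Obsl1 (-1.46) and Ptger3, a prostaglandin E receptor (-1.34), although Obsl1 lost its call without library 1 of both groups together (0.0735). Limma voom called Ifitm1 and Slco3a1 lower but none of Socs2, Gata3 and Esam.

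Col18a1, the chain of collagen XVIII, was at 132, 58.5, 98.6 and 44.3 CPM in WT and at 27.9, 13.0, 36.4 and 5.65 CPM in ME (-2.01, SE 0.46, edgeR adjusted p = 0.0363). Its groups did not overlap, and the call was lost without WT library 3 or ME library 2 or 4 (0.0632 to 0.0881). Creb3l1, a transcription factor of secretory cells, was at 49.1 CPM in WT library 1, at 4.73 to 11.9 CPM in the other WT libraries and at 0.271 to 4.05 CPM in ME (-3.26, SE 0.70, adjusted p = 0.0256). Without WT library 1 its adjusted p was 0.074, and it was 0.0509 to 0.0658 without ME library 1, 2 or 4. Cox4i2, C1qtnf6, Gimap1os, Clec4e and Layn were called lower with log2 fold changes of -2.30, -1.83, -1.44, -1.35 and -1.31. Each of them lost its call without 1 or more single ME libraries, at adjusted p values of 0.0523 to 0.0618, and Layn also without WT library 3 (0.0684).

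Blood stem cell genes did not move as one. Of 26 tested, Mecom was called higher and Esam lower, where 0.364% and 0.278% of all genes tested were, and the median was -0.17. With the block, 3 were called higher (Mecom, Meis1 and Angpt1) and 3 lower (Esam, Cd34 and Cd48), where 1.74% and 1.51% of all genes tested were. Cd34, a sialomucin of progenitors, was at 1059, 699.5, 820.1 and 741 CPM in WT and at 699.2, 369.5, 466 and 379 CPM in ME. The groups only just did not overlap, since WT library 2 and ME library 1 were nearly equal, and the adjusted p was 0.0682 without the block and 0.0051 with it (-0.79, SE 0.20). Cd48, a surface protein used to set multipotent progenitors apart from stem cells, was at 301, 207, 130 and 357 CPM in WT and at 181, 118, 126 and 115 CPM in ME, so WT library 3 lay within the ME range (adjusted p 0.0546, and 0.012 with the block).

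None of the 18 fetal stem cell genes was called in either direction, with or without the block, and their median was 0.24. At an unadjusted p under 0.05 edgeR had 3 of them, DESeq2 called none and limma voom called 1, Lin28b, as higher. Over all 23059 genes tested, edgeR had 3251 at an unadjusted p under 0.05. Of all genes DESeq2 called 448 higher and 354 lower, and limma voom called 12 higher and 4 lower. Lin28b, the RNA-binding protein that marks fetal blood progenitors, was at 34.8, 38.6, 22.9 and 25.8 CPM in WT and at 110.2, 84.9, 83.0 and 69.8 CPM in ME. Its groups did not overlap, and the test gave a log2 fold change of 1.51 with an SE of 0.70 (edgeR adjusted p = 0.331). With the P0 libraries alone the SE was 0.25 and the edgeR adjusted p was 0.138. Hmga2, a chromatin protein of fetal stem cells, was at 166, 142, 79.0 and 181 CPM in WT and at 395, 207, 117 and 233 CPM in ME, with overlapping groups (0.75, SE 0.31, adjusted p = 0.276). None of the 32 cytokine and growth factor receptors was called. With the block 3 of these receptors were called higher and 2 lower, where 1.74% and 1.51% of all genes tested were. There edgeR had 6 at an unadjusted p under 0.05, DESeq2 called 1 higher and 2 lower, and limma voom called none. Il9r, the interleukin 9 receptor, was at 8.71, 6.15, 8.52 and 15.4 CPM in WT and at 71.8, 26.7, 40.6 and 26.2 CPM in ME. Its groups did not overlap (2.09, SE 0.63, adjusted p = 0.126, and 0.0987 with the block). With the P0 libraries alone its SE was 0.41 and its edgeR adjusted p was 0.288.

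**Figure D2:**
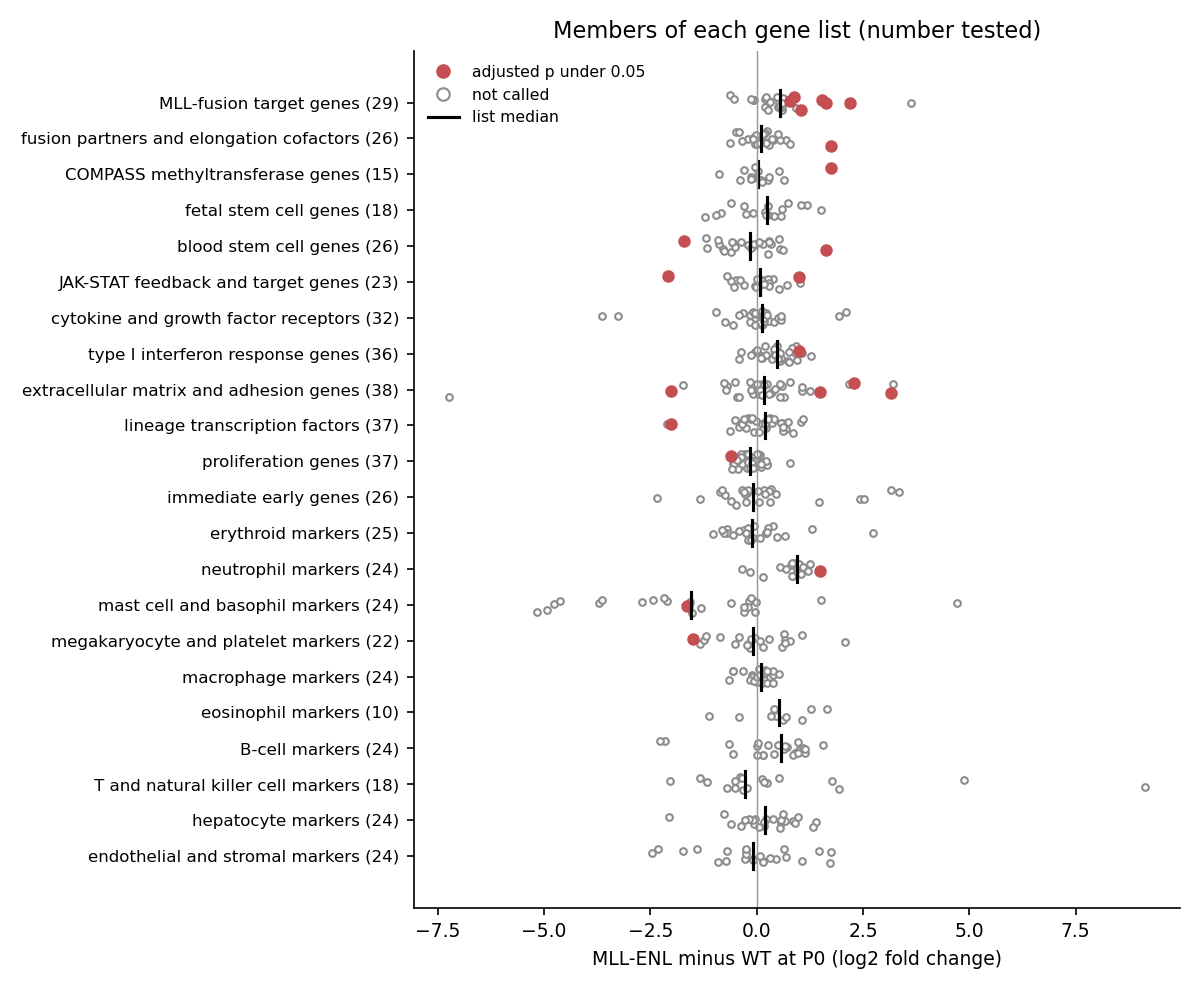
Log2 fold change, ME minus WT, of each tested member of the 22 gene lists, with the number tested in brackets; red points were called, open points were not and black bars are list medians. The MLL-fusion targets have 6 called members, all to the right of 0, and the mast cell and basophil list has the lowest median, -1.55; values of genes near 0 counts in 1 group depend on the prior count of the fit.

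Of the 23 tested genes of the JAK-STAT list, 1 was called higher and 1, Socs2, lower, where 0.364% and 0.278% of all genes tested were. Jak2, a kinase that cytokine receptors use, was called higher with the block, where 1.74% of all genes tested were. Among 36 type I interferon response genes, 1 was called higher and none lower, where 0.364% and 0.278% of all genes tested were. Of the 36, 31 had values above 0, and the median was 0.48. Of all 23059 genes tested, 11301 had values above 0. With the block 5 of the list were called higher, where 1.74% of all genes tested were. Oas2, Oas3, Ifih1 and Eif2ak2 were among the 5. Irf7, the master factor of the interferon response, was at 90.2, 123, 91.9 and 94.9 CPM in WT and at 322, 169.5, 169.9 and 111 CPM in ME, and was not called (0.95, SE 0.27, adjusted p = 0.104). ME library 1 had the highest summed level of this list, 4229 CPM, against 2488 to 3018 CPM in the other ME libraries and 1894 to 2868 CPM in WT. Without library 1 of both groups no member was called, and the median was 0.19.

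Of 38 matrix and adhesion genes, Postn, Pcdh7 and the integrin gene Itgam were called higher and Col18a1 lower (0.364% and 0.278% of all genes tested). Of 37 lineage transcription factors, Gata3 alone was called, and it was lower (0.278% of all genes tested). With the block Ikzf1 and Runx2 were called higher (1.74% of all genes tested) and Gata3 and Mitf lower (1.51%). Of 37 proliferation genes, Cdk4, the kinase that starts the cell cycle with D cyclins, was called lower (0.278% of all genes tested). It was at 623, 768, 855 and 981 CPM in WT and at 495, 553, 524 and 549 CPM in ME, without overlap (-0.61, SE 0.13, edgeR adjusted p = 0.0268), and lost its call without ME library 1 or 3 (0.0618 and 0.0684). No immediate early gene was called of 26 tested (median -0.08). With the block 1 was called higher and 1 lower, where 1.74% and 1.51% of all genes tested were. In edgeR 10 had an unadjusted p under 0.05, where 3251 of all 23059 genes tested did. DESeq2 called 2 lower, where it called 354 of all genes lower, and limma voom called none. The summed level of the immediate early genes was 1446 to 1469 CPM in WT and 1004 to 1319 CPM in ME, without overlap. Such a sum depends most on the most abundant members. Of the 26 members, 13 had log2 fold changes above 0, where 11301 of all 23059 genes tested did.

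RNA of erythroid cells, neutrophils, macrophages and eosinophils was lower in library 1 than in the rest, in both groups. The megakaryocyte sum went the other way, at 1224 CPM in library 1 of WT and 1045 CPM in library 1 of ME. It was 780 to 1017 CPM in the other WT libraries and 697 to 807 CPM in the other ME libraries. Summed over 25 erythroid markers, library 1 held 1872 CPM in WT and 1331 CPM in ME, against 15121 to 19860 CPM in the other WT libraries and 7029 to 15912 CPM in the other ME libraries. The sums over 24 neutrophil markers were 1346 and 1188 CPM in library 1 against 13510 to 21757 CPM in WT and 22737 to 45247 CPM in ME. Thus among libraries 2 to 4 every ME library held more neutrophil RNA than any WT library and library 1 of ME held the least of all 8. The macrophage sums were 337 and 220 CPM in library 1 and 2429 to 3508 CPM in the other 6, and the eosinophil sums were 24.5 and 185 CPM against 838 to 2833 CPM. In bulk samples such as these, fewer cells of a type and less RNA per cell cannot be told apart.

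Tests between the groups gave few calls on these lists. No erythroid, macrophage, eosinophil, B-cell, T and natural killer cell, hepatocyte or endothelial marker was called. At an unadjusted p under 0.05 edgeR had 4 B-cell, 4 T and natural killer cell, 2 hepatocyte and 2 endothelial markers and none of the other 3 lists. It had 3251 of all 23059 genes tested. DESeq2 called 1 marker each of B cells, T and natural killer cells and hepatocytes, all higher. Of all genes it called 448 higher. Limma voom called none of these 7 lists. With the block Hba-a1 and Hba-a2, near-identical copies of alpha globin whose reads can be split, were called lower (1.51% of all genes tested). Cd247, Hnf4a and Pecam1 were called higher with it (1.74%). Of 24 neutrophil markers Itgam alone was called, and it was higher (0.364% of all genes tested). Of the 24, 22 had values above 0 (11301 of all 23059 genes tested), and the median was 0.95. Itgam, which encodes the CD11b integrin chain, was at 6.46, 21.9, 10.7 and 7.72 CPM in WT and at 30.9, 39.0, 33.1 and 27.5 CPM in ME (1.48, SE 0.31, edgeR adjusted p = 0.0247). ME library 1 had as much Itgam as the others while its neutrophil sum was low. The call was lost without WT library 3 or 4 or ME library 2 (0.066 to 0.074). Of 22 megakaryocyte markers Mmrn1 alone was called, and it was lower (0.278% of all genes tested). It was at 228, 163, 177 and 48.5 CPM in WT and at 66.0, 43.0, 82.5 and 25.2 CPM in ME (-1.51, SE 0.33, adjusted p = 0.0268). Its groups overlapped through WT library 4, and its call was lost without WT library 3 or ME library 2 or 4 (0.0533 to 0.0678).

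**Figure D3:**
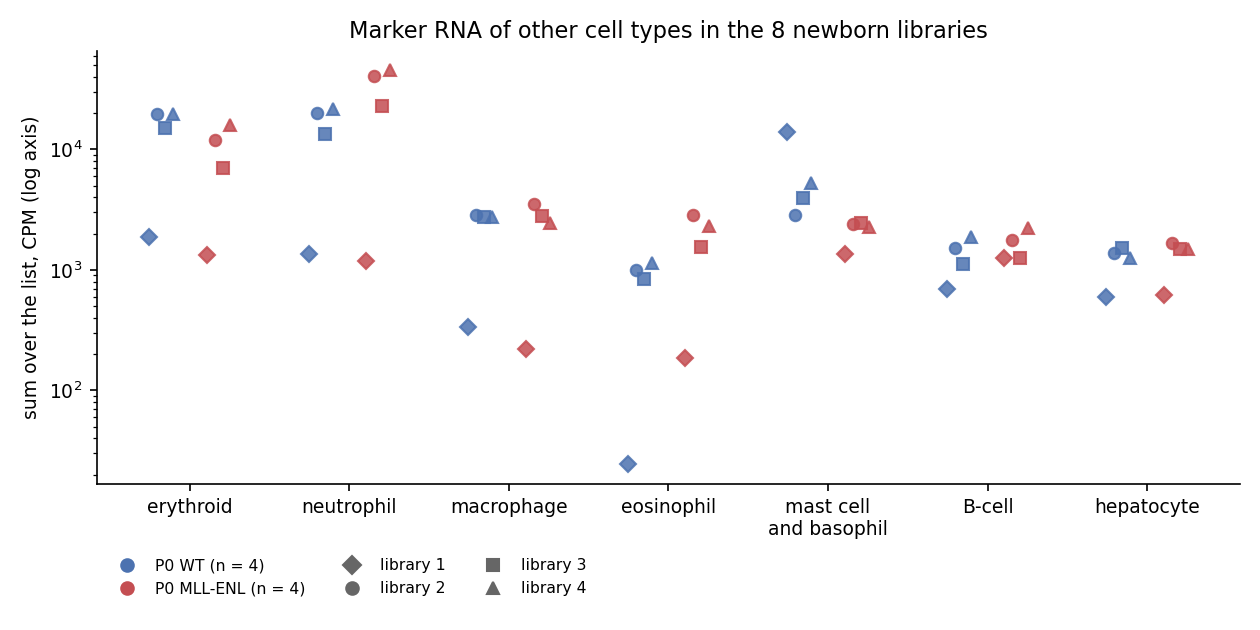
Summed expression, in CPM on a log axis, of 7 marker lists in the 8 newborn libraries; blue is WT, red is ME and marker shapes give the library number. Library 1 of both groups is lowest for erythroid, neutrophil, macrophage and eosinophil RNA, and WT library 1 is highest for mast cell and basophil RNA at 14000 CPM.

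Mast cell and basophil RNA separated the groups, and its sum in library 1 was the highest of WT but the lowest of ME. The 28 markers summed to 14000, 2868, 3928 and 5272 CPM in WT and to 1362, 2386, 2455 and 2293 CPM in ME, so every WT library was above every ME library and WT library 1 above all. Cpa3, the mast cell carboxypeptidase, was at 2545, 224, 394 and 361 CPM in WT and at 9.08, 60.7, 186 and 12.3 CPM in ME. Tpsb2, a mast cell tryptase, was at 4887, 355, 886 and 663 CPM in WT and at 2.74, 0.0338, 246 and 0.296 CPM in ME. Cma1, mast cell chymase, was at 2017, 149, 356 and 358 CPM in WT and at 4.69, 0, 85.7 and 3.28 CPM in ME. For all 3 genes the groups did not overlap and ME library 3 was the highest of its group, but their edgeR adjusted p values were 0.074, 0.336 and 0.126. Il1rl1, the interleukin 33 receptor chain, was at 473 CPM in WT library 1 and at 2.51 to 36.7 CPM in the other 7. Of the 24 tested markers, 7 had lower ME groups without overlap (1.56% of all genes tested), 22 had values below 0 and Ifitm1 alone was called lower (0.278%). Of all 23059 genes tested, 11301 had values above 0. With the block 5 markers were called lower (Cma1, Fcer1a, Il4, Mitf and Ifitm1) and Ccl3 higher, where 1.51% and 1.74% of all genes tested were. Without library 1 of both groups the list's median was -0.21, against -1.55 with all 8 libraries, and Ifitm1 was again its only call. Mcpt1 was at 0 in all 8 libraries. These sums lie in the same direction as the falls described above, and their part in those falls was not tested. Leaving out library 1 does not test it either, because the sums of libraries 2 to 4 still differed. They were 2868 to 5272 CPM in WT and 2293 to 2455 CPM in ME. Ifitm1 is itself a member of the list, and the fit below reuses the remaining libraries. Without library 1 of both groups the falls of Socs2 (adjusted p 0.00687), Gata3 (0.00961), Esam (0.00124), Ifitm1 (0.000493) and Slco3a1 (0.000638) were called again, while Col18a1 (0.0771), Creb3l1 (0.174), Cox4i2 (0.0536), Mmrn1 (0.0704), Obsl1 (0.0735) and Gimap1os (0.0576) were not. Among these, the log2 fold change of Creb3l1 went from -3.26 to -1.89, that of Obsl1 from -1.46 to -1.21, that of Col18a1 from -2.01 to -1.87, that of Mmrn1 from -1.51 to -1.36, that of Gimap1os from -1.44 to -1.35 and that of Cox4i2 from -2.30 to -2.42. Rises that lost their calls there included Col5a3 (0.066), Fam169a (0.0515), Itgam (0.0652), Hoxa7 and Mef2c.

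Transcript length also differed between the called genes. The genes called higher had a median exon length of 5707 bases and those called lower 2868 bases, against 4346.5 bases over 10316 genes of moderate or high level. With offsets for exon length, an alternative added after the data were seen, 176 genes were called (103 higher and 73 lower), 121 of the 148 among them. Hoxa5, Hoxa9, Hoxa10, Mecom, Kmt2a, Postn, Socs2, Gata3, Esam and Ifitm1 were called there, with adjusted p values of 4.68e-06 to 0.00566.

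The P28 marrow libraries share none of the 8 newborn libraries and give a second measurement of the called genes. They are 4 ME libraries, induced at E10.5, against 4 WT libraries. The fit of all 24 libraries uses the same estimate of a gene's spread at both ages. A call at P28 is therefore not independent of a call at P0. Of the 148 genes, 119 (80.4%) had the same sign at P28, where 58.1% of all genes tested did, and 54 were called at P28 with the same sign (36.5%), where 8.94% of all genes were. One, Ttc27, was called with the opposite sign. Liver was sampled at P0 and marrow at P28, so age and tissue cannot be told apart. Gata3 was at 24.1, 19.1, 27.0 and 16.8 CPM in WT marrow and at 2.86, 5.18, 5.27 and 4.37 CPM in ME marrow, again without overlap (-2.29, SE 0.31, edgeR adjusted p = 0.000168). Pcdh7 was at 1.87, 1.76, 4.44 and 2.98 CPM in WT and at 33.1, 43.3, 46.4 and 24.0 CPM in ME, lower than in newborn liver in both groups but as clearly separate (3.71, SE 0.38, adjusted p = 5.31e-06). Mecom (1.51, adjusted p = 0.000967), Ifitm1 (-1.36, 0.000967), Hoxa5 (1.41, 0.00642), Hoxa10 (0.77, 0.02), Hoxa9 (0.53, 0.041) and Mmrn1 (-2.15, 0.000803) were also called at P28. Sva had no count in WT marrow and was at 0.768, 1.45, 1.91 and 1.40 CPM in ME marrow. Il9r, not called at P0, had a log2 fold change of 4.15 at P28 (SE 0.69, adjusted p = 0.00192).

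**Figure D4:**
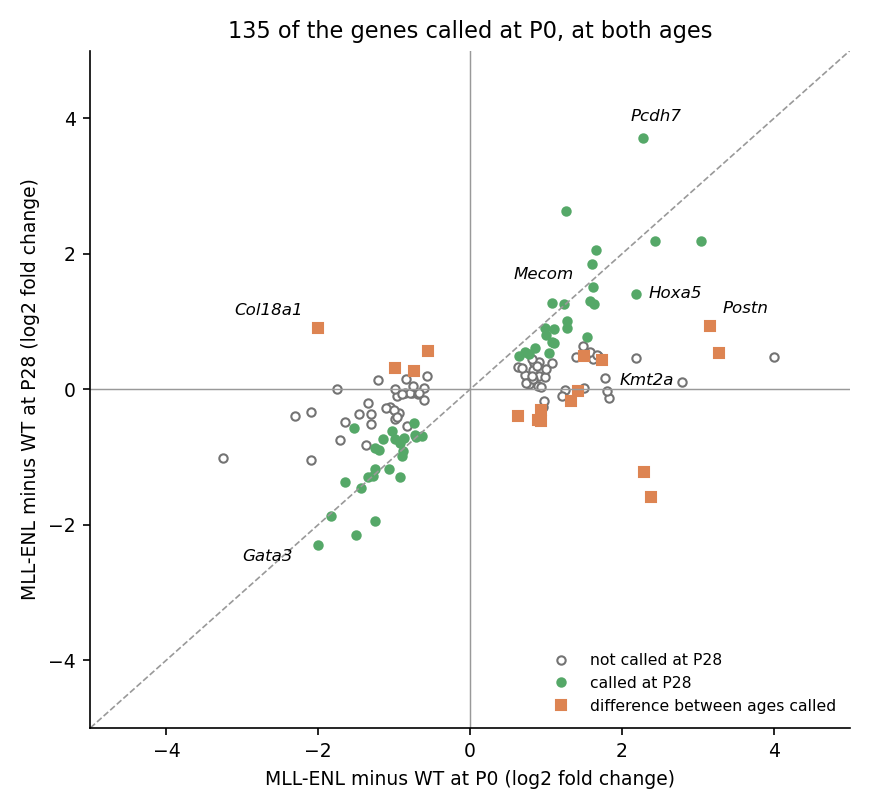
Log2 fold change, ME minus WT, at P28 in marrow against that at P0 in liver for the 135 called genes with a mean of at least 0.5 CPM in both newborn groups (13 are left out); green points were also called at P28, orange squares differed between the ages and the dashed line marks equal changes. Most points have the same sign at both ages, and Postn and Kmt2a lie below the dashed line.

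The difference between the ages was itself tested, and 166 of the 23059 genes were called (0.72%), 19 of the 148 among them. This count was 1653 without WT library 4 of P0 and 41 without ME library 4 of P0. The 148 were chosen for a large difference at P0, which enters this test, so a smaller change at P28 is not an independent finding for them. Postn was at 42.3, 29.2, 30.7 and 45.2 CPM in WT marrow and at 89.5, 94.4, 49.0 and 49.4 CPM in ME marrow. Its log2 fold change was 0.94 there (SE 0.31, edgeR adjusted p = 0.0448) and lower than at P0 by a log2 difference of -2.22 (SE 0.43, adjusted p = 0.0224). WT marrow held more Postn than WT newborn liver, while the ME values at the 2 ages overlapped. Kmt2a was at 36.2, 44.1, 39.9 and 46.4 CPM in WT marrow and at 56.5, 53.4, 58.4 and 57.3 CPM in ME marrow, a difference from P0 of -1.31 (SE 0.24, adjusted p = 0.017). Baz2b differed by -1.01 (SE 0.18, adjusted p = 0.017). Both missed the threshold when the 4 groups were fitted alone (0.0591 and 0.0585). Col18a1 was at 2.66 to 6.10 CPM in WT marrow and at 4.51 to 10.8 CPM in ME marrow, a difference of 2.92 (SE 0.64, adjusted p = 0.036), which was lost without WT library 2 or 3 or ME library 2 or 4 of P0 (0.0516 to 0.0722). Socs2 was at 29.4, 50.6, 56.7 and 58.9 CPM in WT marrow and at 40.0, 49.3, 31.9 and 33.2 CPM in ME marrow, with overlapping groups, and its difference between the ages was not called (1.76, SE 0.44, adjusted p = 0.0543).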

How the data were processed

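Total RNA from a Qiagen RNeasy Plus kit went into SMARTer libraries, per the labels' protocols. The authors deposited raw counts per Ensembl gene for 24 libraries in 1 table; STAR 2.7.9a, Subread featureCounts 2.0.3 and GRCm38 are named in the submitters' processing notes, and the strand setting is not given in the sources used here. Repeated entries (287) were dropped, and coordinates come from GENCODE M21, found for 55141 of 55487 IDs. Promoters come from RefSeq on GRCm38.p6.

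Genes were kept by filterByExpr (minimum count 10), scaled by TMM and tested with the robust quasi-likelihood F-test of edgeR 4.0.16. The fit took every one of the 24 libraries and 6 group means (18 residual degrees of freedom). The contrasts were ME minus WT at P0, the same at P28 for induction at E10.5, and their difference. The detection floor was 3 counts per library, which allows for counting error alone. P-values measure the spread between these libraries. The P0 libraries with the same number deviated together (r = 0.718, 0.169, 0.379 and 0.510 over 10325 genes), each above 0.1, so the number was taken to pair them. The pairing comes from the data, not the labels, and is not clear-cut: WT library 4 with ME library 2 (0.411) and WT library 2 with ME library 3 (0.291) exceeded the matched pair of libraries 2. The procedure was also run on simulated counts, with a spread between libraries set well below that estimated here. That run therefore does not give the error rate in these data.

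Named genes are the 15 largest rises and 15 largest falls among called genes that reach 3 in mean log2 CPM in the higher group and have groups that do not overlap, without predicted models, immunoglobulin, T-cell receptor and sex-marker genes, together with members of 22 gene lists, Kit, Ly6a, Kmt2a, Mllt1 and Kmt2c; other named genes were chosen after their values were seen. Some genes that this rule picks are not reported here. The comparison, members and lists were chosen with earlier results of these data known. Alternatives were RLE factors, plain totals, DESeq2 1.42.0, limma 3.58.1 voom with quality weights, 2 other filters, the compared groups alone, the replicate block, leaving out libraries and, added later, exon-length offsets. R 4.3.3, Python 3.11.15 and matplotlib 3.10.9 were used.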

Additional observations from a re-analysis of the deposited data

Results flagged for a closer look

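A single library lay far from the other 3 of its group in 13 of the 116 groups of named genes looked at, and 7 of the 13 were WT library 1. Chance flags about 1 in 20 independent groups, but these groups are not independent: the genes share libraries, several mark 1 cell type and some were named after their values were seen, so the 2 rates are not compared. In that library Cpa3 was at 2545 CPM, Tpsb2 at 4887 CPM, Cma1 at 2017 CPM and Il1rl1 at 473 CPM, all genes of mast cells. Creb3l1 (49.1 CPM), Meis1 (277 CPM) and Flt3 (929 CPM) were also highest there among the WT libraries. ME library 3 stood above the other ME libraries for Tpsb2 (246 CPM) and Cma1 (85.7 CPM). ME library 1 was high for Zeb2 (150 CPM), ME library 4 for Mmp11 (16.2 CPM) and WT library 2 for Irf7 (123 CPM). Kitl had 0.0334 CPM in WT library 4 and 0 in the other WT libraries.

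The effect of ME differed between P28 marrow and newborn liver, by the test of the difference, for Postn (-2.22 on the log2 scale, P28 minus P0), Kmt2a (-1.31), Baz2b (-1.01) and Col18a1 (2.92). For the first 3 the rise was smaller at P28, and Col18a1, lower in ME at P0, had higher means in ME at P28. All 4 were chosen for a large difference at P0, which enters this test. With the 4 groups fitted alone Postn kept its call (edgeR adjusted p = 0.014). Kmt2a (0.0591), Baz2b (0.0585) and Col18a1 (0.0657) did not. Reads of the human transgene cannot be told apart from Kmt2a reads.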

How the results depend on the processing

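Of 1158 fold changes of 58 named genes under the alternatives, 900 kept their direction and side of the threshold, 215 lost the call, 33 gained it and 10 changed direction. These 10 belong to genes that were not called: Mllt1 (0.012 with plain totals, 0.0070 with limma voom, 0.11 with the replicate block, 0.11 with the block in the P0 libraries alone, 0.22 without WT library 3 and 0.03 without ME library 4), Kit (-0.22 without WT library 4, -0.15 without ME library 1 and -0.02 without ME library 3) and Flt3 (-0.080 without ME library 1). Over single libraries left out, the values were -0.22 to 0.58 for Kit, -0.35 to 0.22 for Mllt1 and -0.08 to 0.49 for Flt3. The count of 148 genes called at P0 became 802 with DESeq2, 16 with limma voom, 5 with the P0 libraries alone, 750 with the replicate block, 26 with the block in the P0 libraries alone, 238 without library 1 of both groups and 1 when both changes were made together. Leaving out single libraries gave 104 to 575, the highest without WT library 1. The 5 calls of the P0 libraries alone stand beside 3251 genes with an unadjusted p under 0.05 in the fit of all libraries. The count of 166 genes that differ between the ages became 86 with RLE factors, 73 with plain totals, 782 with DESeq2, 644 with limma voom, 65 without a filter, 41 with the 4 groups alone and 1193 with the replicate block, and was 41 to 1653 when single P0 libraries were left out, the highest without WT library 4. The share of P0 calls with the same sign at P28 (80.4%) became 66.5% with DESeq2, 93.8% with limma voom, 100% (5 genes) with the 4 groups alone, 73.2% with the replicate block, 71.8% without library 1 of both groups and 68.9 to 83.2% when single libraries were left out. The share of calls higher in ME (56.8%) was 67.2% with plain totals and 38.9 to 58.3% when single libraries were left out, the lowest without WT library 4. The cause of these shifts was not tested.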
